A study of Mus musculus with 9 samples.

Results

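The genes described here encode the enzymes that make cholesterol and fatty acids, with the proteins that switch those enzymes on and off. They are a list of 28 genes given by name, with no threshold on a measured value in the rule, among the 55487 genes of the count table, and all 28 passed the filter on low counts, as did 15237 genes in all. RNA was sequenced in B16F10 cells, a mouse melanoma line grown in a serum-containing medium. One group was treated for 6 h with interferon gamma (IFNγ) at 50 ng/mL together with FK866 at 50 nM, another with IFNγ at 50 ng/mL alone, and the third was kept in media. FK866 blocks NAMPT, the enzyme that limits how fast cells recycle nicotinamide into NAD. The protocol in the labels mentions mouse or human IFNγ and gives a catalogue entry for the mouse protein. No group received FK866 without IFNγ.

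Each group has 3 libraries, and in every group the titles carry the word Control with the number 3, 4 or 5. The labels do not explain these numbers, so libraries are called here by their treatment and number. The labels do not say that libraries come from separate cultures. P-values therefore measure only the spread between these libraries, and libraries with the same number may share a culture. The libraries hold between 15317003 and 18466972 counts. All 8 melanocyte markers examined were expressed, summing to between 22628 and 28216 CPM (counts scaled to a common library size). Of the leukocyte markers only Cd68 passed the filter, and Ptprc, Itgam and Csf1r had 0 counts in every library. In bulk RNA, fewer cells of a kind and less RNA per cell cannot be told apart.

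Cholesterol is built from acetyl-CoA in 2 stretches: the mevalonate pathway makes isoprenoid units, and the sterol pathway joins them to squalene, closes the ring system and trims it to cholesterol. Fatty acid synthesis uses the same acetyl-CoA, which ACLY makes from citrate. Both are driven by the SREBP transcription factors, membrane proteins that SCAP escorts from the endoplasmic reticulum to the Golgi for cleavage when sterols are low, and that INSIG proteins hold back when sterols are high.

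RefSeq (GRCm38.p6) gave promoter sequence, from 250 bases before to 50 bases after the annotated start, for 22 of the 28 genes; Fdps, Fdft1, Sqle, Stard4, Scd1 and Scd2 had no entry. Shown first is Hmgcs1, the gene with a match to the SREBP-binding sterol element TCACNCCAC (chr13:119690101-119690400, plus strand). Next come Hsd17b7 and Ebp, the 2 members called higher with IFNγ when libraries were compared within their number (chr1:169969156-169969455 and chrX:8193463-8193762, both minus strand). Last is Insig1, the member with the largest decrease in that same comparison (chr5:28071162-28071461, plus strand). Capitals mark TCACNCCAC in Hmgcs1, the E-box CACGTG in Hsd17b7 and Insig1, and the STAT-type element TTCNNNGAA in Ebp.
Hmgcs1: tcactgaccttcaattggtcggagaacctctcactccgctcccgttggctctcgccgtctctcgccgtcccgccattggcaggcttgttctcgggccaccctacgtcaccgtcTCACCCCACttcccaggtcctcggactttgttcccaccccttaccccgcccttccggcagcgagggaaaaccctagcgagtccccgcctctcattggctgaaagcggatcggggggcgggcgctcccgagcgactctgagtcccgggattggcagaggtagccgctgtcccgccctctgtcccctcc
Hsd17b7: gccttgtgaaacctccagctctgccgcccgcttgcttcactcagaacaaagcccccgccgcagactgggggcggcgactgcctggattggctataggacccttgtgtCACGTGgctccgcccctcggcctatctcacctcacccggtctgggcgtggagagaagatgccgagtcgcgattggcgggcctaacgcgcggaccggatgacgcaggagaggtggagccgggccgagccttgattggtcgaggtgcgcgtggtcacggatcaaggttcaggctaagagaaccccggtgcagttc
Ebp: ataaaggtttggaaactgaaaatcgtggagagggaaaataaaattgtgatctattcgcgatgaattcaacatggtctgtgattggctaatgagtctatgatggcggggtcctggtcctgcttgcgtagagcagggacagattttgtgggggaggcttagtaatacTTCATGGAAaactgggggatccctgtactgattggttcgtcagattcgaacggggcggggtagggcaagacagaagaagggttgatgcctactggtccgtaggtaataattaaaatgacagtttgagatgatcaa
Insig1: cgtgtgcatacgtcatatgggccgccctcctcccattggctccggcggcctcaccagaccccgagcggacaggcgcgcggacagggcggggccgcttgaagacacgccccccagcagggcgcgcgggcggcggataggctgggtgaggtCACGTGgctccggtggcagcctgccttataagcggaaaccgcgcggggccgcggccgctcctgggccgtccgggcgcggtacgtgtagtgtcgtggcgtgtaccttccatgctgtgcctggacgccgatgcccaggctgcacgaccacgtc
All motifs were searched on both strands, and none of those marked overlaps another. TCACNCCAC lay in 1 of the 28 promoters of the 22 genes, that of Hmgcs1, at positions -137 to -129 from the start, and in 1.24% of 32851 mouse promoters of the same length. CACGTG lay in 6 of 28 promoters (of Dhcr7, Hsd17b7, Insig1, Sc5d and Scap) and in 7.15% of all promoters. TTCNNNGAA lay in 1 of 28, that of Ebp, at -85 to -77, and in 8.30% of all promoters. Some genes have several annotated promoters, and those of Scap overlap, so that 1 CACGTG site there is counted in both. Counted as genes, CACGTG lay in 5 of 22. Counted as promoters, CCAAT, the NF-Y box, lay in 20 of the 28 member promoters, against 37.4% of all promoters, and GGGCGG, the Sp1 box, in 22 of 28, against 35.7%. A match is a run of letters and not a shown binding site, and no match says only that these letters are not in this window.

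Levels per length ran over a wide range, with Scd2, Fasn and Acly at the top. Levels in TPM (reads per base of transcript, scaled to a common total), computed from merged exon lengths over all 9 libraries, were led by Scd2, the stearoyl-CoA desaturase that puts a double bond into saturated fatty acids, at 761 ± 152 TPM (SD, n = 9). Fasn, the fatty acid synthase, followed at 241 ± 41.1 TPM, then Acly at 151 ± 11.3 and Scd1, the second desaturase, at 125 ± 38.5. Among the sterol enzymes Cyp51, the lanosterol demethylase, stood first at 117 ± 25.8 TPM. Of the control genes Insig1 had 107 ± 36.1, Srebf2, the SREBP of cholesterol synthesis, 93.7 ± 12.5, and Srebf1, the SREBP that favours fatty acid synthesis, 37.9 ± 6.65 TPM. The mevalonate genes were led by Hmgcs1, which makes HMG-CoA, at 77.6 ± 22.9 TPM. At the low end stood Lss, the cyclase that makes lanosterol, at 12.9 ± 1.33 TPM, and Tm7sf2, a sterol reductase, at 2.65 ± 0.384. The gap to the next gene exceeded the larger SD of the pair after Scd2, Fasn, Acat2, Fdps and Lss, so most neighbours in this order do not differ beyond their spread.

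**Figure D1:**
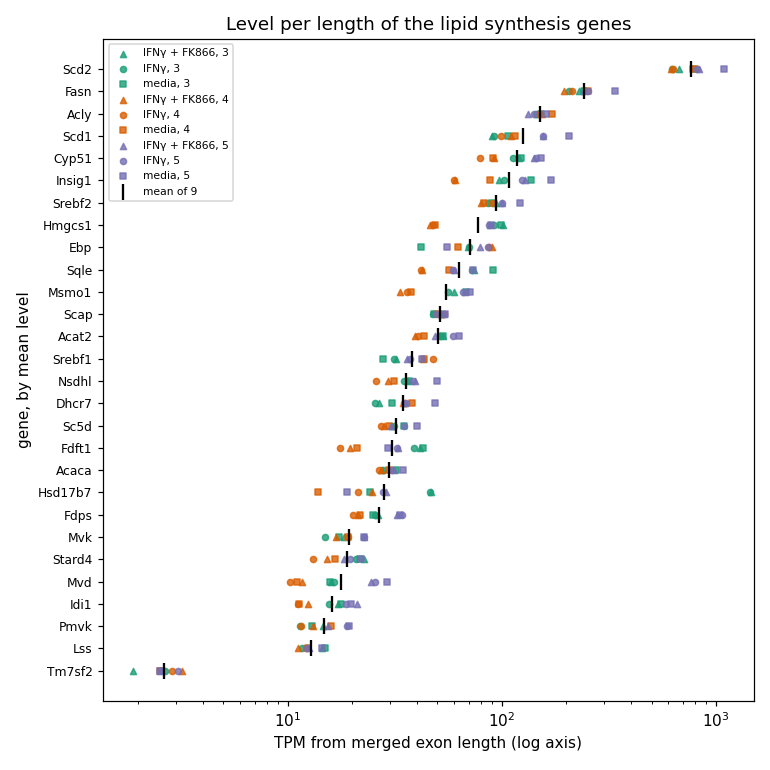
Level of the 28 genes in each of the 9 libraries, in TPM on a log axis, ordered by mean (black bar). Colours give the number in the title and shapes the treatment. Scd2 is highest at 761 TPM and Tm7sf2 lowest at 2.65 TPM, and libraries numbered 4 sit at the low end for many sterol genes.

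The number in the title, not the treatment, went with most of the differences in these genes. With treatment and number in 1 model, 26 of 28 genes differed between the numbers (edgeR quasi-likelihood test over 2 degrees of freedom, Benjamini-Hochberg adjusted p below 0.05), where 51.8% of all genes tested did. Among genes with a mean of at least 10 CPM, a level that 26 of the 28 reach, 67.0% differed. The 2 that did not pass were Tm7sf2 and Acly. By sums of squares of log2 CPM, the number took a median of 85.8% of a member's variation and treatment 6.05%, against 54.4% and 15.3% over all genes tested. Because libraries with the same number may share a culture, the p-values for numbers may treat 3 libraries of 1 culture as 3 samples.

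**Figure D2:**
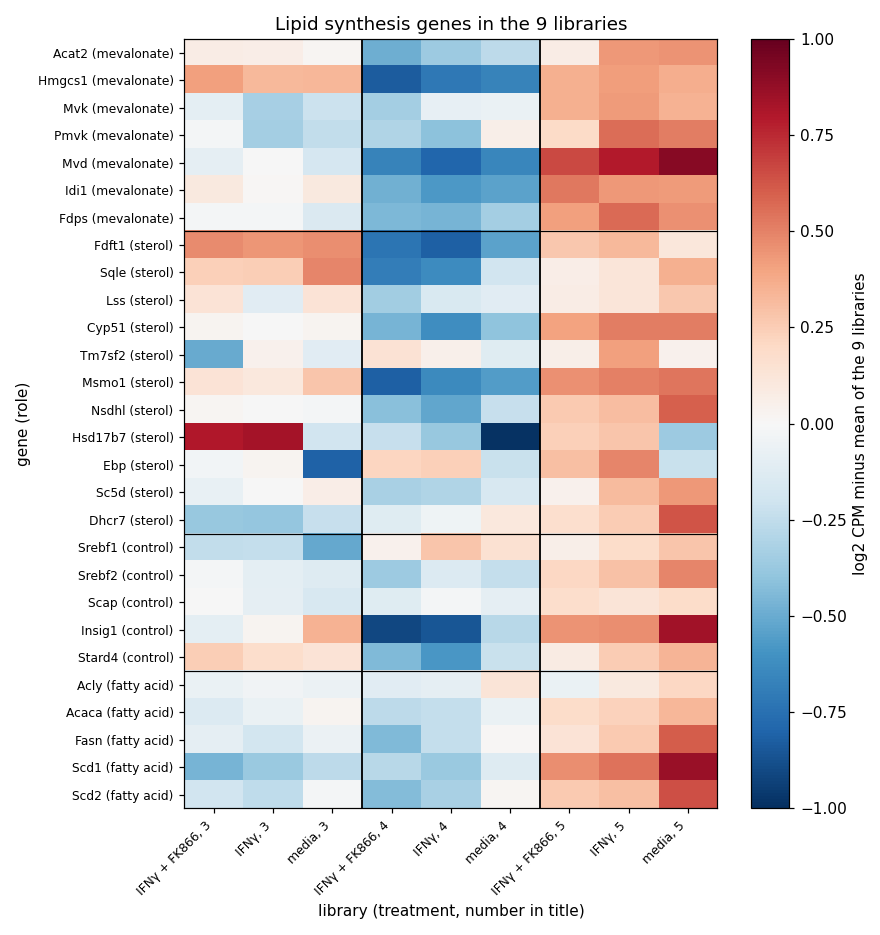
Log2 CPM of each gene minus its mean over the 9 libraries, in 3 blocks of columns by the number in the title and, within a block, IFNγ + FK866, IFNγ and media. Rows are grouped by role. The number 4 block is blue for most mevalonate and sterol genes and the number 5 block is red for most genes in all 4 groups. Hsd17b7 and Ebp also differ between the media column and its neighbours within each block.

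The mevalonate genes were lowest in libraries numbered 4. Hmgcs1 had 168, 158 and 159 CPM in the number 3 libraries (IFNγ + FK866, IFNγ and media), 71.0, 77.0 and 79.6 in number 4, and 162, 169 and 163 in number 5. The number 4 libraries thus lay apart from the other 6, which overlapped. The log2 fold change was 1.09 ± 0.06 (SE) for 3 over 4, adjusted p = 6.9e-11, and -1.12 ± 0.06 for 4 over 5, adjusted p = 1.2e-10. Mvd, the decarboxylase that closes the mevalonate pathway, had 10.8, 11.5 and 10.2 CPM in number 3, 7.23, 6.64 and 7.29 in number 4, and 18.1, 19.9 and 21.6 in number 5. Its 3 numbers did not overlap, and 4 over 5 gave -1.49 ± 0.12 on the log2 scale, the most negative of the 28 members. Idi1, the isomerase of isoprenoid units, and Fdps, which makes farnesyl diphosphate, had the same order, number 4 lowest and number 5 highest, with 4 over 5 at -0.99 ± 0.09 and -0.90 ± 0.07. Mvk and Pmvk, the kinases of the pathway, had no detected difference between 3 and 4 (-0.05 ± 0.11 and 0.02 ± 0.16, adjusted p = 0.78 and 0.95) and were lower in both than in number 5. Of the 7 mevalonate genes, 5 were higher in number 3 than in number 4, and all 7 were lower in number 4 than in number 5. Of all genes tested, 15.2% were higher in the first comparison and 15.2% lower in the second. Among genes of at least 10 CPM, 40.1% and 41.7% were called in either direction. The annotation places other genes over parts of Hmgcs1, Mvd, Idi1, Fdps, Fdft1, Lss, Cyp51, Tm7sf2, Srebf1, Srebf2, Scap, Acly, Acaca and Scd2. Their counts could include reads of those genes, since the strand setting is not known here; Hsd17b7, Ebp, Insig1 and Sqle have no such overlap.

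Most sterol enzymes had the same low in number 4. Fdft1, squalene synthase and the first committed step to sterols, had 63.4, 62.0 and 63.2 CPM in number 3, 27.5, 25.9 and 31.7 in number 4, and 55.1, 57.4 and 49.5 in number 5. It had the highest log2 fold change of 3 over 4 among the 28, 1.15 ± 0.08 (adjusted p = 1.6e-09), with no overlap between these numbers. Msmo1, the methyl sterol oxidase, had 133, 129 and 146 CPM in number 3, 68.4, 77.2 and 81.8 in number 4, and 166, 170 and 174 in number 5, again with 3 separate ranges. Sqle, the squalene epoxidase and a rate-limiting step, differed by 0.83 ± 0.06 for 3 over 4 and by -0.68 ± 0.06 for 4 over 5. Cyp51 differed by 0.51 ± 0.06 and -0.97 ± 0.06 in the same comparisons. The sterol genes did not all follow 1 order. Hsd17b7, a reductase that acts with Msmo1 and Nsdhl in removing methyl groups, was highest in number 3, with 0.44 ± 0.08 for 3 over 5 (adjusted p = 0.00012). Ebp, the sterol isomerase, and Dhcr7, the reductase of the last step, were lowest in number 3, at -0.45 ± 0.08 and -0.68 ± 0.07 for 3 over 5. Of the 11 sterol genes, 8 were higher and 2 lower in number 3 than in number 4, and 9 were lower in number 4 than in number 5. The shares of all genes tested were 15.2%, 15.8% and 15.2%. Tm7sf2 passed in no comparison of numbers.

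Among the control genes, Insig1 varied most between the numbers. It had 109, 119 and 149 CPM in number 3, 62.2, 64.6 and 96.4 in number 4, and 159, 161 and 209 in number 5, and the numbers did not overlap. Its log2 fold changes were 0.77 ± 0.06 for 3 over 4, -0.49 ± 0.06 for 3 over 5 and -1.26 ± 0.06 for 4 over 5. Stard4, a carrier of sterols between membranes, was lower in number 4 than in both others (0.60 ± 0.09 for 3 over 4, -0.64 ± 0.09 for 4 over 5). Srebf2 was highest in number 5, with -0.41 ± 0.07 for 3 over 5 and -0.58 ± 0.07 for 4 over 5. Srebf1 took another order: it had 65.8, 66.2 and 54.9 CPM in number 3, 80.5, 94.5 and 86.6 in number 4, and 81.3, 88.5 and 94.7 in number 5. Number 3 was lower than number 4 by -0.48 ± 0.08 (adjusted p = 7.3e-05), while 4 and 5 overlapped (-0.02 ± 0.08, adjusted p = 0.88). Scap was the steadiest control gene, 1.27 times higher in its highest than in its lowest library.

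Of the 5 fatty acid genes, 4 were highest in number 5 in every treatment, where 17.2% of all genes tested were. Between 3 and 4, edgeR called 0 of the 5, where 15.2% of all genes tested were called higher and 15.8% lower. Among genes of at least 10 CPM, 40.1% were called in either direction. Of the 5, 1 had an unadjusted edgeR p below 0.05, and DESeq2 and limma-voom called 0. Log2 fold changes ran from -0.11 ± 0.07 for Scd1 to 0.13 ± 0.06 for Acaca, the acetyl-CoA carboxylase (edgeR adjusted p = 0.25 and 0.098). With the media libraries left out, Fasn (0.20, adjusted p = 0.018) and Scd2 (0.16, adjusted p = 0.031) were called higher in 3 than in 4, as was Fasn without media library 3 (0.21, adjusted p = 0.023), and with library totals in place of TMM Scd1 was called lower (-0.15, adjusted p = 0.048). Scd1 had 159, 169 and 183 CPM in number 3, 181, 169 and 201 in number 4, and 303, 319 and 399 in number 5. Every number 5 library was above the other 6, with -0.99 ± 0.07 for 3 over 5 (adjusted p = 4e-10) and -0.89 ± 0.07 for 4 over 5. Fasn had 906, 849 and 928 CPM in number 3, 713, 820 and 975 in number 4, and 1061, 1159 and 1466 in number 5. Scd2 and Acaca had the same division, and Acly passed in neither comparison with number 5.

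Over all 28 members, 15 were higher and 3 lower in number 3 than in number 4, where 15.2% of all genes tested were higher and 15.8% lower. Number 3 against number 5 gave 2 higher and 20 lower (21.1% and 20.8% of all genes), and number 4 against number 5 gave 0 higher and 24 lower (15.9% and 15.2%). The 0 was the same in DESeq2 and limma-voom. Among genes of at least 10 CPM, 40.1%, 54.6% and 41.7% were called in either direction in these 3 comparisons. The median log2 fold changes of the members were 0.26, -0.39 and -0.64 in these comparisons, against -0.003, -0.004 and 0.01 over all genes. In every treatment number 4 was the lowest of the numbers for 17 members, where 10.9% of all genes show that order, and number 5 the highest for 18, where 17.2% do. For 15 members all number 4 libraries lay below all others (5.6% of all genes), and for 17 all number 5 libraries lay above all others (10.3%). Sqle was called higher for 3 over 5 with library totals (0.18, adjusted p = 0.012) and without media library 3 (0.19, adjusted p = 0.029). Srebf2 was called higher for 3 over 4 with the media libraries left out (0.19, adjusted p = 0.030), without media library 3 (0.23, adjusted p = 0.024) and without media library 5 (0.17, adjusted p = 0.038). Fdft1 lost its call for 3 over 5 in DESeq2 (adjusted p = 0.059), with the media libraries left out (0.15 on the log2 scale, adjusted p = 0.098), and without media library 3 or 5, IFNγ library 3, or IFNγ + FK866 library 3 or 5 (0.12 to 0.24, adjusted p = 0.050 to 0.26). Calls of 3 over 4 were also lost by Lss without IFNγ + FK866 library 3 or 4 (adjusted p = 0.14 and 0.15) and by Sc5d without IFNγ library 4 (0.068). Calls of 3 over 5 were lost by Acat2 with the media libraries left out (0.066) or without media library 3, IFNγ library 3 or IFNγ library 5 (0.072, 0.064 and 0.094) and by Pmvk without IFNγ library 5 (0.052), and calls of 4 over 5 by Pmvk without IFNγ library 5 (0.057) and by Scap without IFNγ + FK866 library 4 (0.073). The leukocyte markers, whose sum was mostly Cd68, also went with the number, at 6.55 to 8.99 CPM in number 3, 9.80 to 12.0 in number 4 and 3.21 to 4.64 in number 5. Of the fibroblast, endothelial and keratinocyte list, 2 of the 3 tested genes differed between the numbers, where 51.8% of all genes tested did. These genes went in opposite directions between 3 and 4. That list summed to 8.55 to 15.1 CPM in number 3, 13.0 to 19.5 in number 4 and 8.62 to 13.1 in number 5, with 3 of its 10 genes tested. Pdgfra, a fibroblast marker, had 0.949, 1.19 and 1.19 CPM in number 3 (IFNγ + FK866, IFNγ and media), 7.28, 5.60 and 7.29 in number 4, and between 1.44 and 2.63 in number 5. Its number 4 libraries lay above all others, with -2.60 ± 0.26 for 3 over 4 (adjusted p = 1.9e-07), and Pdgfrb had 0.70 ± 0.20 for 3 over 4 (adjusted p = 0.0092). Col1a2 was not called between the numbers (edgeR test over 2 degrees of freedom, adjusted p = 0.96). Col3a1 had at most 3 counts in a library, and Cdh5, Kdr, Krt5 and Krt14 had 0. Of the 8 melanocyte markers, 6 differed between the numbers, where 51.8% of all genes tested and 67.0% of those of at least 10 CPM did. The part of these markers in the results was not tested. Markers of adipocytes and hepatocytes summed to at most 0.704 CPM in any library.

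**Figure D3:**
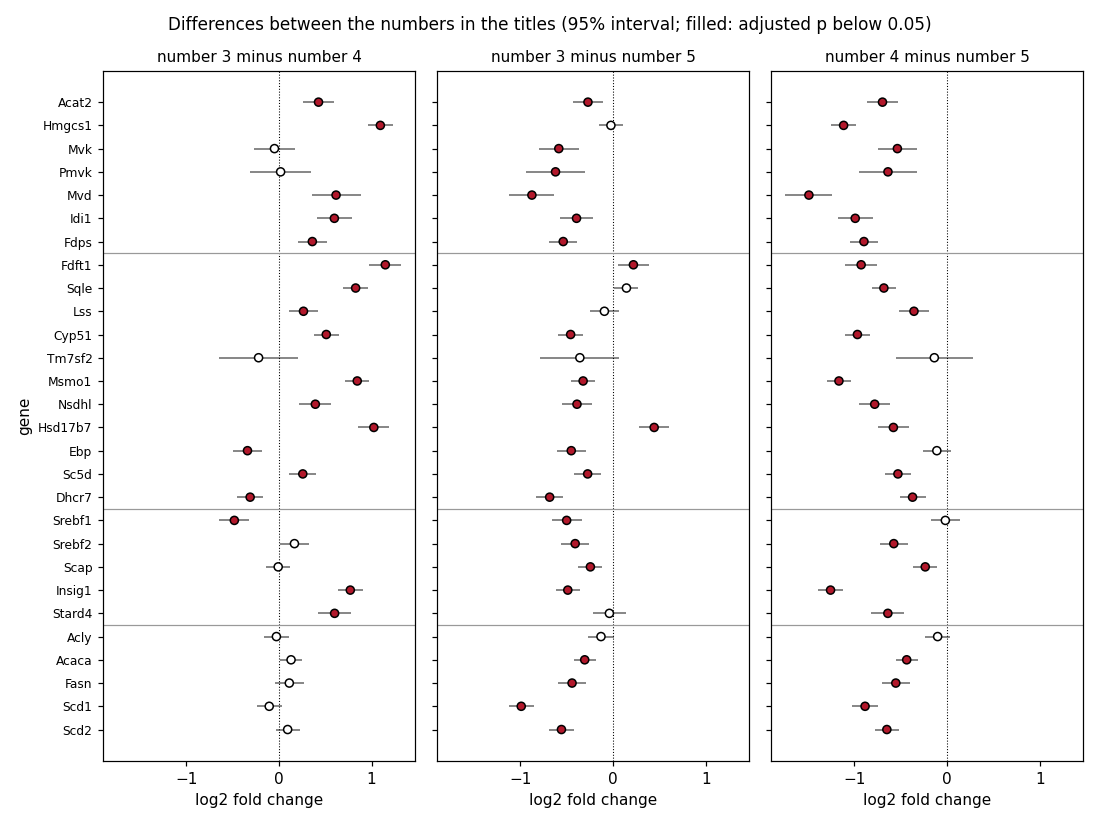
Log2 fold change of each gene between the numbers in the titles, adjusted for treatment, with its 95% interval (lines). Filled points passed the adjusted p of 0.05. Points lie mostly right of 0 for number 3 minus number 4 and left of 0 for number 4 minus number 5, and the 5 fatty acid genes at the bottom are near 0 in the first panel.

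Against the media library of the same number, IFNγ raised Hsd17b7 and Ebp and lowered Insig1, Sqle and Scd2, by modest amounts. Scd1, Fasn and Dhcr7 were also called lower, but these calls were lost without the libraries numbered 4 or those numbered 5. In the fit that leaves the numbers out, 0 of 28 members were called (edgeR), where 3.3% of all genes tested were; 2 members had an unadjusted p below 0.05, and DESeq2 called 1, Ebp. With the number as a block, 2 members were called higher and 6 lower, where 8.12% of all genes were higher and 6.14% lower, or 14.3% in all. Among genes of at least 10 CPM the share called was 18.6%. The median SE of a member was 0.07 with the block and 0.25 without it. The median log2 fold change was -0.09 for the members and -0.01 for all genes.

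Hsd17b7 had 88.4, 38.3 and 60.1 CPM in IFNγ libraries 3, 4 and 5, against 43.6, 25.0 and 38.5 CPM in media libraries 3, 4 and 5. The groups overlapped, but IFNγ was higher in 3 of 3 pairs, and the blocked log2 fold change was 0.77 ± 0.08 (SE; 1.70-fold, adjusted p = 4.7e-07), against 0.80 ± 0.34 without the block (adjusted p = 0.45). Ebp had 60.8, 70.4 and 83.6 CPM in IFNγ libraries, against 34.0, 51.1 and 51.1 CPM in media libraries. Here the groups did not overlap, and the blocked log2 fold change was 0.66 ± 0.08 (1.58-fold, adjusted p = 1.3e-06), against an adjusted p of 0.11 without the block. No other sterol gene was called higher. Tm7sf2 was higher within each pair but not called, at 2.67, 2.88 and 3.07 TPM in IFNγ libraries 3, 4 and 5. Its media libraries 3, 4 and 5 had 2.56, 2.53 and 2.52 TPM. Nsdhl, the partner of Hsd17b7, had -0.19 ± 0.08 (adjusted p = 0.14) and Cyp51 -0.08 ± 0.06 (adjusted p = 0.56), neither called. Sqle and Dhcr7 were called lower, with values given below. Nsdhl was called lower with library totals in place of TMM (-0.22, adjusted p = 0.049), without media library 3 (-0.29, adjusted p = 0.019), and without all libraries numbered 3 (-0.28, adjusted p = 0.044).

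Insig1, the sterol-sensing brake on SREBP cleavage and itself a SREBP target, had 119, 64.6 and 161 CPM in IFNγ libraries, against 149, 96.4 and 209 in media libraries. It was lower in 3 of 3 pairs, with a blocked log2 fold change of -0.42 ± 0.06 (0.748-fold, adjusted p = 5.3e-05). Sqle had 150, 81.8 and 137 CPM in IFNγ libraries, against 177, 111 and 162 in media libraries, and a blocked change of -0.30 ± 0.06 (adjusted p = 0.0015). Scd2 had 1273, 1210 and 1871 CPM in IFNγ libraries, against 1496, 1540 and 2371 in media libraries, and a change of -0.31 ± 0.06 (adjusted p = 0.0012). For each of these 3 the groups overlap, and the difference shows within the pairs.

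Smaller decreases of Fasn (-0.24 ± 0.07, adjusted p = 0.030), Scd1 (-0.23 ± 0.07, adjusted p = 0.019) and Dhcr7 (-0.23 ± 0.07, adjusted p = 0.024) passed with the block and were lost when libraries were left out. Without the libraries numbered 5 the Fasn, Scd1 and Dhcr7 changes were -0.18, -0.17 and -0.15, with adjusted p of 0.18, 0.14 and 0.27, and without those numbered 4 they were -0.24, -0.23 and -0.28, with adjusted p of 0.093, 0.076 and 0.051. Fasn was also not called in DESeq2 with the block (adjusted p = 0.22). By role, the block called 2 of 11 sterol genes higher and 2 lower, 3 of 5 fatty acid genes lower, 1 of 5 control genes lower, and 0 of 7 mevalonate genes (edgeR; 0 with an unadjusted p below 0.05, and 0 by DESeq2 and limma-voom with the block), whose log2 fold changes ran from -0.16 ± 0.15 for Pmvk to 0.04 ± 0.07 for Fdps. Of all genes tested, 8.12% were called higher and 6.14% lower with the block, and 18.6% of those of at least 10 CPM were called. Hmgcs1, with the sterol element printed above, stood at 0.00 ± 0.06. Srebf1, Srebf2 and Scap had 0.09 ± 0.08, -0.02 ± 0.07 and 0.03 ± 0.06, with no call. Some marker genes also moved in this comparison. Mitf, the melanocyte transcription factor, had 266, 374 and 366 CPM in IFNγ libraries, against 753, 884 and 783 in media libraries (-1.27 ± 0.15, adjusted p = 0.00077 without the block). With the block Mitf and Sox10 (-0.30 ± 0.06) were the melanocyte markers called. Scaled by library totals alone, the 8 summed to 23332 to 26309 CPM in IFNγ libraries and 26767 to 28216 in media libraries. The TMM factors were 0.977 for IFNγ library 3 and 1.03 for media library 4. They would raise the sum of that IFNγ library and lower that of that media library, so this separation depends on the scaling. Col1a2, a collagen gene of fibroblasts, had 1.32, 1.77 and 1.95 CPM in IFNγ libraries, against 5.65, 6.57 and 4.12 in media libraries (-1.69 ± 0.27 with the block, adjusted p = 9.1e-05). Of the 3 tested genes on the list that holds Col1a2, only this 1 was called, and Pdgfra and Pdgfrb were not. The list of 10 with Col1a2 summed to 8.55 to 13.0 CPM in IFNγ libraries and 13.1 to 19.5 in media libraries, and the leukocyte list to 3.21 to 10.2 and 3.67 to 12.0. The part of these markers in the result was not tested.

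**Figure D4:**
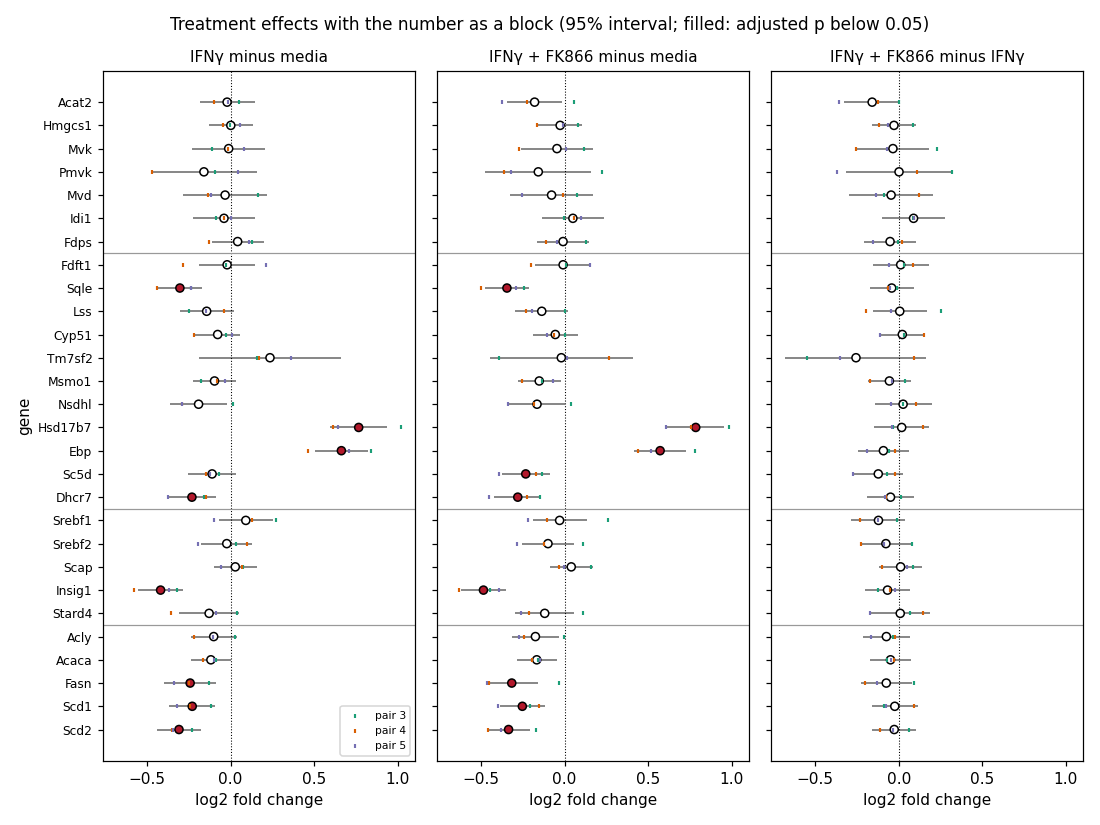
Log2 fold change of each gene with the number as a block, with its 95% interval, for IFNγ minus media, IFNγ + FK866 minus media and IFNγ + FK866 minus IFNγ. Filled points passed the adjusted p of 0.05 and coloured ticks are the differences within each numbered pair. Hsd17b7 and Ebp stand right of 0 and Insig1 furthest left in the first 2 panels; no point of the third panel is filled. The first 2 panels share the media libraries.

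The comparison of IFNγ + FK866 with media shares its media libraries with that of IFNγ, so its values are given beside those above. Without the block 0 members were called (edgeR; 3.36% of all genes, 2 members with an unadjusted p below 0.05, and 0 by DESeq2 and limma-voom). With the block 2 were higher and 7 lower, where 8.53% of all genes were higher and 7.61% lower, or 16.1% in all. Among genes of at least 10 CPM the share called was 20.9%. Hsd17b7 had 86.2, 42.2 and 58.5 CPM in IFNγ + FK866 libraries and a blocked change of 0.78 ± 0.08. Ebp had 58.4, 69.3 and 73.2 CPM, none overlapping the media libraries, and 0.57 ± 0.08. Insig1 was at 109, 62.2 and 159 CPM with -0.49 ± 0.06, and Sqle and Scd2 changed by -0.35 ± 0.06 and -0.34 ± 0.06. Sc5d, a sterol desaturase, was called here only (-0.23 ± 0.07, adjusted p = 0.024, against -0.11 ± 0.07 and adjusted p = 0.39 with IFNγ alone), and the difference between these 2 values was itself not called (-0.12 ± 0.07). Fasn, Scd1 and Dhcr7 were also called lower (-0.32 ± 0.07, -0.25 ± 0.07 and -0.28 ± 0.07), and without the libraries numbered 5 all 3 lost that call (adjusted p = 0.079, 0.16 and 0.16). Fasn lost it too without those numbered 4 (0.095) and in DESeq2 (0.058). Sc5d lost its call in DESeq2 (adjusted p = 0.059), and without the libraries numbered 4 (0.080) or 5 (0.32). Acaca gained a call in DESeq2, limma-voom and with library totals (-0.16, -0.17 and -0.16, adjusted p = 0.038, 0.044 and 0.033). Acly gained one with library totals (-0.17, adjusted p = 0.037), and Acly and Acat2 without all libraries numbered 3 (-0.24 and -0.28, adjusted p = 0.035 and 0.027).

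Adding FK866 to IFNγ gave no called change in any of the 28 genes. Without the block 0 members were called by edgeR, DESeq2 or limma-voom and 0 had an unadjusted edgeR p below 0.05; with the block both counts were again 0. The fit without the block counts the differences between numbers as error (median SE of a member 0.25, against 0.07 with the block). Its 0 therefore says little about changes of this size. Over all genes the calls were 0 (0%; 88 with an unadjusted p below 0.05) and, with the block, 3 (0.0197%; 573 unadjusted). Blocked log2 fold changes of the members ran from -0.26 for Tm7sf2 to 0.09 for Idi1, and their 95% intervals together covered -0.68 to 0.32. For the 2 genes called higher with IFNγ under the block, IFNγ + FK866 minus IFNγ was 0.02 for Hsd17b7 (95% interval -0.15 to 0.18) and -0.09 for Ebp (-0.25 to 0.06). For Insig1 it was -0.07 (-0.20 to 0.07), and for Fasn -0.07 (-0.23 to 0.08). Within the pairs, 7 members were lower with FK866 in 3 of 3 (16.2% of all genes), 1 was higher (12.1%) and 20 were mixed. A missed threshold does not show that FK866 left these genes as they were, and the intervals give the range that these libraries allow.

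Other genes of lipid metabolism gave the setting of these changes. Of 82 such genes listed by function, 74 were tested, and with the block IFNγ against media called 12 higher and 10 lower, where 8.12% of all genes were higher and 6.14% lower (14.3% in all, and 18.6% among genes of at least 10 CPM). Without the block 4 of the 12 were called, where 3.3% of all genes were. Acacb, the acetyl-CoA carboxylase of the mitochondrial surface, whose product restrains fatty acid oxidation, had 53.1, 22.0 and 17.7 CPM in IFNγ libraries, against 13.7, 5.81 and 7.04 in media libraries. The groups did not overlap, and its blocked log2 fold change was 1.76 ± 0.12 (adjusted p = 3.8e-10; 0.18 without the block). Rnf139, a ubiquitin ligase of the sterol-sensing machinery, had 66.2, 59.4 and 61.7 CPM in IFNγ libraries, against 39.5, 38.8 and 39.6 in media libraries, 0.67 ± 0.07 (adjusted p = 5.8e-07; 0.004 without the block). Insig2, the second brake of SREBP cleavage, was lower, at 46.5, 30.4 and 29.9 CPM in IFNγ libraries, against 68.8, 40.6 and 35.6 in media libraries, -0.42 ± 0.08 (adjusted p = 0.00055; 0.92 without the block). Aacs, which makes acetoacetyl-CoA from ketone bodies, was higher by 0.64 ± 0.06, and Elovl6, the elongase of saturated fatty acids, lower by -0.46 ± 0.08. Acyl-CoA synthetases moved in both directions, with Acsl1 at 0.46 ± 0.08 and Acsl5 at 0.47 ± 0.07 (adjusted p = 0.041 each without the block) and Acsl3 at -0.41 ± 0.06. Lpin1, the phosphatidate phosphatase, was lower by -0.61 ± 0.10, and smaller changes of Hacd2 (-0.25 ± 0.07), Por (-0.26 ± 0.07) and Coq2 (0.29 ± 0.09) also passed with the block.

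**Figure D5:**
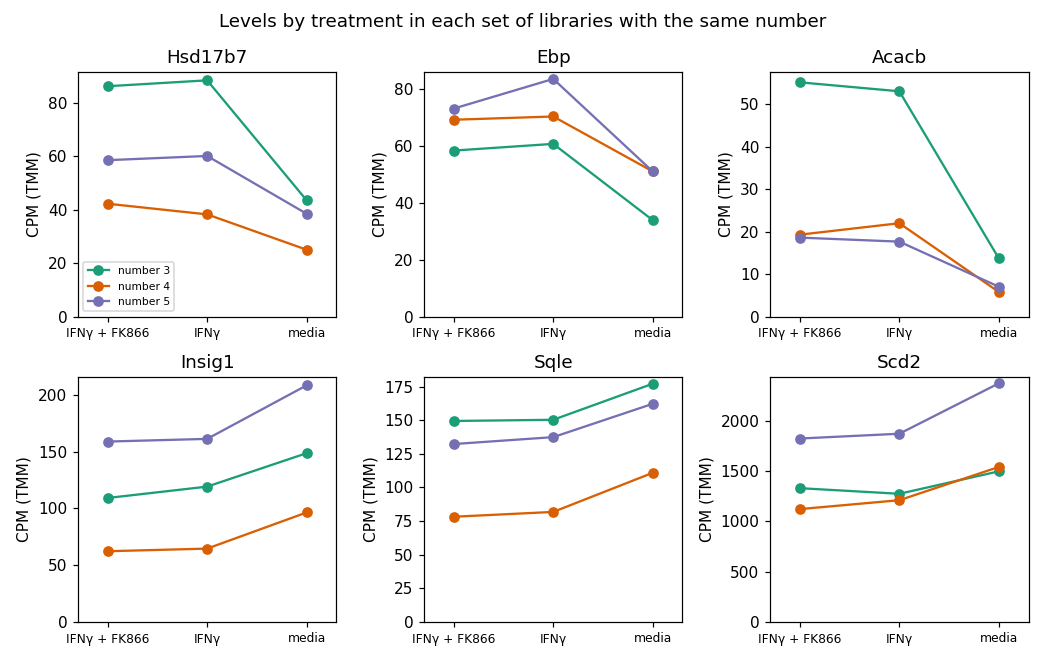
CPM of 6 genes in IFNγ + FK866, IFNγ and media libraries, with 1 line for each number in the titles and axes from 0. Hsd17b7, Ebp and Acacb are lower in media than in both treated groups for every number, and Insig1, Sqle and Scd2 are higher in media. For Hsd17b7, Insig1 and Sqle the numbers keep 1 order in every treatment.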

How the data were processed

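The deposited table gives whole-number read counts by Ensembl gene for 9 polyA RNA libraries in 3 groups of 3. Per the submitters' processing notes the tools were cutadapt 1.16, STAR 2.7.6a, featureCounts 1.6.3 and, in its version 1.30.1, DESeq2, and the builds mm10 and GRCm38, without their roles. Strand setting and annotation release: not given in the sources used here. Having no values per cell, the table was analysed as bulk RNA. Symbols, exon lengths and coordinates came from GENCODE for GRCm38, which matched 55227 of 55487 genes. Of 140 genes listed by name, 139 are in the table.

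Genes were kept by edgeR's filterByExpr (15237 genes, 99.9% of counts), scaled by TMM and tested with edgeR 4.0.16 in R 4.3.3 (quasi-likelihood, all 9 libraries, Benjamini-Hochberg over all genes, called at adjusted p below 0.05). CPM values of single genes use TMM library sizes, and sums over marker lists use library totals alone. The comparisons of treatments have treatment alone as the main model and the number in the title as a block beside it. Numbers were compared with treatment and number in 1 model. The numbers pair the libraries: among libraries sharing a number (9 pairs) the deviations from the group means had correlations of 0.555 to 0.728, and among the other 18 pairs -0.477 to -0.112. Replicates differed by more than counting error (chi-square divided by its degrees of freedom 23.9 to 41.4), so none were merged. Alternatives were DESeq2 1.42.0, limma-voom (limma 3.58.1), other scalings, no filter, and fewer libraries. Alternatives that combine the block with another choice were chosen after seeing the data. The code was tested on simulated data with 200 changed genes.

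The 28 members and the other lists were chosen with earlier results of these data known. Named genes are all members, genes of the other lists called in a comparison of treatments with or without the block, and the 3 genes of each such list with the smallest p between numbers. A few genes that meet this rule are not reported here.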

Additional observations from a re-analysis of the deposited data

How the results depend on the processing

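No comparison of a named gene that was called in a main or alternative fit changed sign. The replicate block moved the counts most. For IFNγ against media, the called genes numbered 503 without the block, 2173 with it, 757 in DESeq2, and 314 to 487 with 1 library left out; members higher were 2 with the block, 1 in DESeq2 and 1 without the filter, and members lower were 6 with the block. For IFNγ + FK866 against media the called genes were 512 without the block, 2459 with it, 775 in DESeq2 and 322 to 479 with 1 library left out, with 2 members higher and 7 lower under the block. For IFNγ + FK866 against IFNγ the block called 3 genes, and the blocked count was 1 in DESeq2, 1 with library totals, 20 without the filter, 8 with only the 2 groups compared, and 0 to 12 with libraries left out. With the block and libraries left out, IFNγ against media called 1402 to 2404 genes and 3 to 7 members lower, and IFNγ + FK866 against media 1398 to 2798 genes and 3 to 10 members lower; in both, 2 members were higher in every such fit. Hsd17b7, Ebp, Insig1, Sqle and Scd2 kept their blocked calls in every alternative run.

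Number 3 against number 5 had 2 members higher, 1 in DESeq2 and 1 with media libraries left out (1 to 2 with 1 library left out). Number 4 against number 5 called 4733 genes and 3062 to 5358 with 1 library left out. No scaling moved the median of all genes by over 0.1 on the log2 scale. Allowing 1 mismatch, the sterol element was in 10 of the 28 member promoters, against 24.2% of all promoters. With the longest transcript in place of merged exons, Scd2, Fasn and Acly kept the first 3 places and Tm7sf2 the last, while Scd1 moved to place 6, behind Srebf2 and Cyp51. Having 3 libraries per group and not knowing what the numbers stand for limits every comparison.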

Other observations

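Some genes of sterol storage, export and lipid use were also called for IFNγ against media in the blocked fit. They were 4 of 13 tested genes of sterol export and storage and 6 of 15 of lipid use and storage. The share called was 14.3% of all genes tested and 18.6% of those of at least 10 CPM. Nceh1, which hydrolyses cholesteryl esters, had 118, 96.0 and 128 CPM in IFNγ libraries, against 76.0, 69.8 and 90.5 in media libraries, a log2 fold change of 0.53 ± 0.06 (edgeR adjusted p = 2.4e-06). Nr1h2, the oxysterol receptor LXR beta, was higher by 0.40 ± 0.08, and Npc1, which moves cholesterol out of lysosomes, lower by -0.32 ± 0.06. Lipa, the lysosomal acid lipase, was lower by -0.26 ± 0.07. Ppard, a nuclear receptor for fatty acids, had 125, 126 and 117 CPM in IFNγ libraries, against 86.5, 74.7 and 88.3 in media libraries, 0.56 ± 0.07 (adjusted p = 3.7e-06; 0.014 without the block). Pnpla2, the lipase that opens triglyceride breakdown, was higher by 0.52 ± 0.08, Plin2, a lipid droplet coat protein, by 0.28 ± 0.07 and Lipe, the hormone-sensitive lipase, by 0.96 ± 0.25, while Mgll, the monoglyceride lipase, and Cpt1a, the carnitine transferase of fatty acid oxidation, were lower by -0.45 ± 0.10 and -0.23 ± 0.07. The block calls of Coq2, Por, Hacd2, Lipa, Plin2, Lipe, Mgll and Cpt1a were each lost in at least 1 fit with libraries left out. Paqr3, Tmem41b, Mid1ip1, Hsd17b12, Plin3, G0s2 and Acadm were called with the block for IFNγ + FK866 against media and not for IFNγ against media, and each lost that call in at least 1 fit with libraries left out. Mid1ip1, Plin3 and Tmem41b were called lower for IFNγ against media in the block with library totals (adjusted p = 0.047, 0.034 and 0.021), Mid1ip1 and Plin3 in other fits too. None of these genes was called for IFNγ + FK866 against IFNγ with the block.

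Several of these genes also differed between the numbers. Abca1, the cholesterol exporter, had 20.8, 23.1 and 24.4 CPM in number 3 (IFNγ + FK866, IFNγ and media), 5.93, 5.97 and 7.34 in number 4 and 15.8, 14.7 and 17.5 in number 5. Number 3 was thus highest and number 4 lowest, with a log2 fold change of 1.83 for 3 over 4 (adjusted p = 2e-10). Ppargc1a, a coactivator of mitochondrial genes, had 88.3, 83.0 and 86.4 CPM in number 3, 33.6, 33.9 and 26.4 in number 4 and 64.5, 62.7 and 67.0 in number 5. Cpt1a was higher in number 3 than in number 4 by 1.17 and than in number 5 by 1.23, and Soat1, which esterifies cholesterol, by 0.84 and 0.68. Fads1, a fatty acid desaturase, was highest in number 5, at -1.12 for 3 over 5 and -0.87 for 4 over 5.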
